A study of Mus with 7 samples.

Results

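A set of 6 genes of G-protein-coupled receptor signalling was followed across the 7 single-cell libraries of the study. They were the receptors Gpr84 and Gpr183, the regulators of G-protein signalling Rgs1 and Rgs2, the exchange factor gene Rasgef1b and the phosphodiesterase gene Pde4b, which make 6 of the 31053 genes counted. They were picked by symbol because their levels had changed with lipopolysaccharide (LPS), and in several cases with docosahexaenoic acid (DHA), in these same libraries. Their levels and ratios are therefore a description of that choice and carry no test.

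The cells were fetal liver-derived macrophages (FLMs), which are primary macrophages grown from dissociated wild-type mouse fetal livers that keep dividing in granulocyte-macrophage colony-stimulating factor (GM-CSF). All 7 conditions had 30 ng/mL GM-CSF. Con cells were taken from 10% serum before any treatment. Veh cells spent 24 h in 0.25% serum with 8.3 µM bovine serum albumin (BSA), and DHA cells spent 24 h in the same medium with 25 µM DHA bound to 8.3 µM BSA. Veh.LPS.0 and DHA.LPS.0 were collected then, without LPS. For Veh.LPS.1, DHA.LPS.1, Veh.LPS.4 and DHA.LPS.4 the DHA or BSA medium was taken off and replaced with medium holding 20 ng/mL LPS for 1 or 4 h, so that LPS, the change of medium and the removal of DHA or BSA cannot be told apart in a comparison with 0 h. Serum, BSA and the 24 h of culture likewise changed together between Con and Veh.LPS.0. The model is a proliferating culture in GM-CSF outside the tissue, and each condition was 1 library, so no difference below has a replicate check.

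Each captured RNA molecule carried a unique molecular identifier (UMI). Cells were kept as in the methods of the study, with over 20000 UMIs, at least 2000 genes and under 20% of UMIs from mitochondrial genes. This left 692 to 3073 cells and 22045775 to 125716982 UMIs a library. The median kept cell had 29369 UMIs in Veh.LPS.1, the lowest, 29631 in DHA.LPS.4 and 56239 in Veh.LPS.4, the highest. Shares of cells with a UMI are therefore at a common depth only where cells were thinned. The kept share of barcodes was 40.6% to 62.5% in Con and Veh but 12.1% to 18.5% in DHA, because 74.4% to 80.0% of DHA barcodes were at or above the mitochondrial limit against 29.0% to 54.7% elsewhere. All 9 macrophage markers were present in every library, with a summed level of 5817 to 7089 CPM, which are UMI counts of a gene scaled to the same total in every library. Markers of mast cells, B cells, T or NK cells, erythroid cells, hepatocytes and stromal cells summed to at most 0.542 CPM, dendritic markers to at most 1.88 CPM and neutrophil markers to at most 6.99 CPM. No pair of libraries shared more than 4 barcodes. With only macrophages present, there was no cell type lacking these genes in which UMIs from free RNA could be measured.

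Signalling through these receptors follows a common course. A ligand-bound receptor makes a heterotrimeric G protein exchange GDP for GTP, and the freed subunits act on effectors such as adenylyl cyclase, which makes cyclic AMP. RGS proteins speed the hydrolysis of GTP on the G-protein alpha subunit and so end the signal. Phosphodiesterases break cyclic AMP down, and guanine-nucleotide exchange factors load small GTPases of the Ras and Rap families. GPR84 responds to medium-chain fatty acids and couples to Gi. GPR183, also called EBI2, binds oxysterols made from cholesterol by Ch25h and Cyp7b1 and guides the migration of immune cells. In macrophages, LPS acts through TLR4, and RGS proteins, PDE4B and RASGEF1B, an exchange factor for Rap GTPases, are known as genes that such signals change.

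Among the receptors, Gpr84 was higher and Gpr183 lower after LPS, in Veh and in DHA. Gpr84 (ENSMUSG00000063234; chromosome 15, 103308233 to 103310670 in GRCm38.p6, the assembly of the mm10 build used for the files) was counted at 45.2 CPM in Con, 38.0 in Veh.LPS.0, 266 in Veh.LPS.1 and 383 in Veh.LPS.4. With DHA it was counted at 21.6, 150 and 308 CPM at 0, 1 and 4 h. All 4 LPS libraries lay above all 3 libraries without LPS, and at each hour DHA lay below Veh. The Veh level was 7.01-fold higher at 1 h than at 0 h (interval 6.77 to 7.26) and 10.1-fold higher at 4 h (9.74 to 10.4). The DHA level was 6.93-fold (6.41 to 7.49) and 14.3-fold (13.2 to 15.4) higher. These intervals, like those of all ratios below, are exact 95% intervals for counting error alone. The intervals of differences between log2 responses are approximate 95% intervals, taken from the counting variance of the sums. Neither kind covers the sampling of cells or cultures.

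Gpr84 stood lower in DHA than in Veh before LPS and at 1 h, by about the same ratio. The ratio of DHA to Veh was 0.568 (0.525 to 0.614) at 0 h, 0.561 (0.544 to 0.579) at 1 h and 0.805 (0.783 to 0.827) at 4 h. The log2 response to LPS at 1 h accordingly differed between DHA and Veh by -0.02 (-0.14 to 0.10). At 4 h the log2 response was larger in DHA by 0.50 (0.38 to 0.62). In CPM the rise from 0 h was smaller in DHA than in Veh, at 128 against 228 at 1 h and 287 against 345 at 4 h. In cells with at most 20 UMIs of mitotic genes the log2 difference at 4 h was smaller by 0.28. The share of cells with a Gpr84 UMI, after each cell had been thinned to 20000 UMIs, was 54.2% in Con, 48.3% in Veh.LPS.0 and 32.5% in DHA.LPS.0, against 94.5%, 82.6%, 98.1% and 96.2% in Veh.LPS.1, DHA.LPS.1, Veh.LPS.4 and DHA.LPS.4. Unthinned, the shares were 53.3% to 74.5% without LPS and 91.8% to 99.6% with it. Over all barcodes, with no limit on quality, the log2 ratio of DHA to Veh was -0.36 at 0 h, -0.33 at 1 h and 0.14 at 4 h, so the 1.5-fold limit was not passed and at 4 h the direction was the other way. The medians of all genes over all barcodes were -0.25, -0.31 and -0.18. In the barcodes with at least 20% mitochondrial UMIs alone, DHA lay below Veh at each hour. The levels there, with mitochondrial genes left out of the total, were 80.4 against 129, 545 against 888 and 994 against 1107 CPM. In DHA the share of barcodes removed by the mitochondrial limit was also far higher than in Veh. The part of that difference in the Gpr84 ratio was not tested.

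Gpr183 (ENSMUSG00000051212; chromosome 14, 121952331 to 121965193) went the other way and was nearly gone at 4 h. Before LPS it was counted at 74.4 CPM in Con and 100.3 in Veh.LPS.0, then at 42.9 CPM at 1 h and 4.39 CPM at 4 h. With DHA the levels were 73.8, 37.4 and 5.58 CPM at 0, 1 and 4 h. Every library with LPS lay below every library without it, and both 4 h libraries lay below both 1 h libraries. The ratio to 0 h was 0.428 (0.413 to 0.444) at 1 h and 0.0437 (0.0385 to 0.0495) at 4 h in Veh, and 0.507 (0.473 to 0.543) and 0.0756 (0.0625 to 0.0906) in DHA. The thinned share of cells with a UMI went from 79.2% in Veh.LPS.0 to 52.7% at 1 h and 7.35% at 4 h, and from 67.9% to 46.7% and 9.39% in DHA. Unthinned, 91.5%, 63.9% and 16.7% of the Veh cells and 89.1%, 63.9% and 11.8% of the DHA cells had a UMI. At 4 h the unthinned order of Veh and DHA was thus opposite to the thinned one, with a median of 56239 UMIs a cell in Veh.LPS.4 and 29631 in DHA.LPS.4. At 4 h the level rested on 257 UMIs in Veh and 123 in DHA.

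DHA was below Veh for Gpr183 at 0 h, with a ratio of 0.736 (0.705 to 0.769), and at 1 h, with a ratio of 0.871 (0.816 to 0.930), and above it at 4 h, with a ratio of 1.27 (1.02 to 1.58), and none of the 3 passed the 1.5-fold limit. Over all barcodes the log2 ratios were 0.06, 0.52 and 0.63, so the order at 0 and 1 h was the other way. The medians of all genes there were -0.25, -0.31 and -0.18. Gpr183 lies within the locus of the protein-coding gene Ubac2 in the RefSeq table, and how reads in such overlaps were assigned is not given in the sources used here.

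Of the enzymes that make and break down the GPR183 ligand, few UMIs were counted for Ch25h, Cyp7b1 and Hsd3b7. Ch25h, which adds the 25-hydroxyl group to cholesterol, had 0 UMIs in 5 libraries, 6 in Veh.LPS.4 and 1 in DHA.LPS.4. Cyp7b1, the next enzyme of the route, had 0 UMIs in every library, which allows a level of up to 0.0239 CPM in Con and 0.136 CPM in DHA.LPS.4 (3 counts of the total). Hsd3b7, which degrades the ligand, had 5 to 40 UMIs a library. Cyp27a1, another sterol hydroxylase, had 9.63 CPM in Veh.LPS.0 and 2.94 CPM in Veh.LPS.4, with 9.71 and 3.13 CPM in the matched DHA libraries. Of the long-chain fatty acid receptors to which DHA is known to bind, Ffar1 had 1 UMI in Veh.LPS.1 and 0 elsewhere, and Ffar4 had 0 to 5 UMIs a library.

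**Figure D1:**
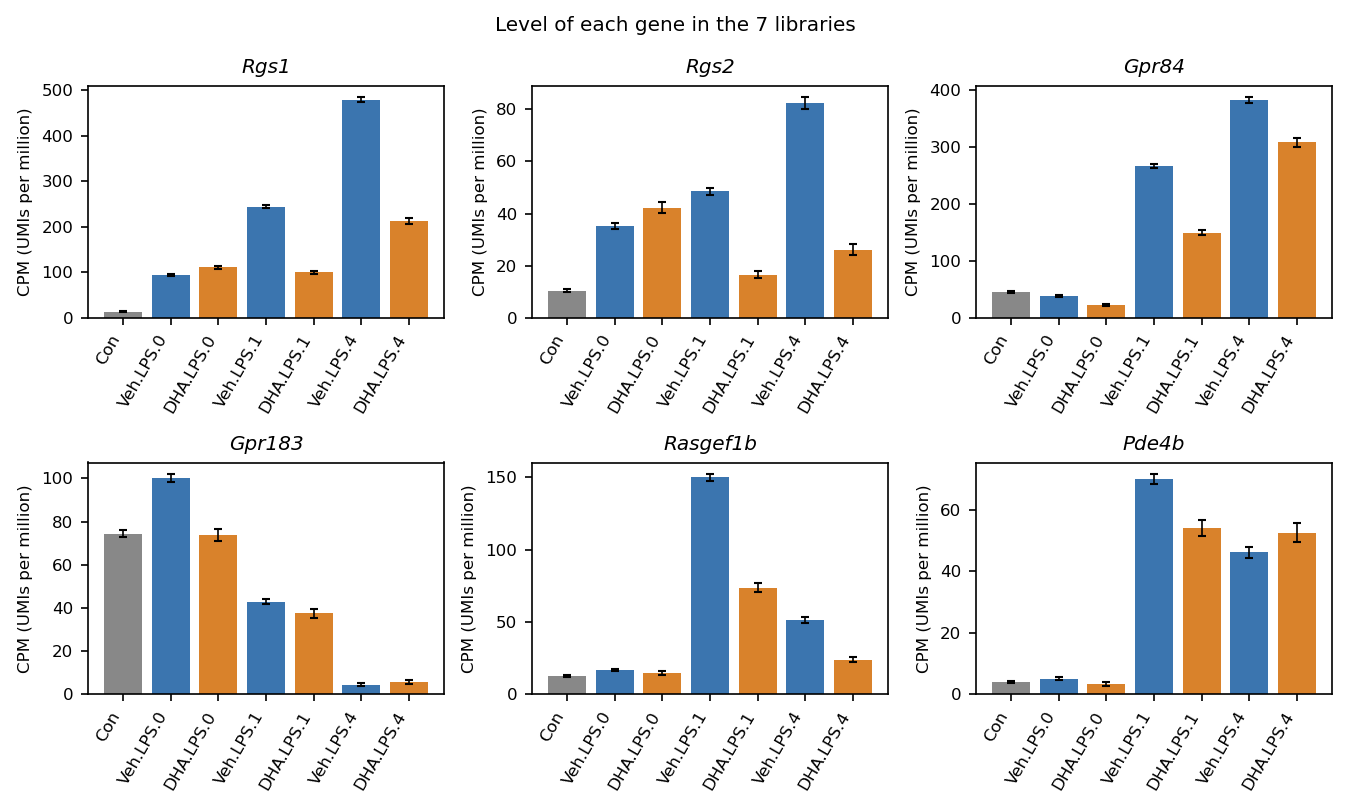
Level of each gene in CPM (vertical axes, linear from 0) in the 7 libraries, with grey for Con, blue for Veh and orange for DHA and with bars for the exact 95% Poisson interval of the count. Gpr84 goes from 38.0 to 383 CPM and Gpr183 from 100.3 to 4.39 CPM between Veh.LPS.0 and Veh.LPS.4, while Rgs1 and Rgs2 are higher in DHA than in Veh at 0 h and lower at 1 and 4 h.

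Of the 6 genes, the RGS genes had the lowest ratios of CPM in DHA to CPM in Veh once LPS was present. At 4 h Rgs1 and Rasgef1b were not set apart, with ratios of 0.444 (0.431 to 0.458) and 0.466 (0.424 to 0.511). With SCTransform-corrected counts (pseudocount 1) Rgs2 was not among the 2 lowest ratios at 1 h. Its log2 ratio was then -0.71 against -0.74 for Rasgef1b. Rgs1 (ENSMUSG00000026358; chromosome 1, 144244669 to 144249104), whose protein acts on Gi and Gq alpha subunits, was counted at 12.9 CPM in Con, 94.2 in Veh.LPS.0, 243 in Veh.LPS.1 and 479 in Veh.LPS.4. With DHA it was counted at 111, 99.7 and 213 CPM at 0, 1 and 4 h. The Veh level was highest at 4 h, whereas the DHA level at 1 h was no higher than at 0 h. Already without LPS, Veh.LPS.0 was 7.32-fold above Con (6.94 to 7.72). The Veh ratio to 0 h was 2.58 (2.52 to 2.65) at 1 h and 5.09 (4.97 to 5.21) at 4 h. In DHA it was 0.900 (0.858 to 0.943) and 1.92 (1.84 to 2.0).

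For Rgs1 the ratio of DHA to Veh was 1.18 (1.13 to 1.22) at 0 h, 0.409 (0.394 to 0.425) at 1 h and 0.444 (0.431 to 0.458) at 4 h. On the log2 scale the response to LPS was smaller in DHA by 1.52 at 1 h (interval -1.60 to -1.45) and by 1.40 at 4 h (-1.47 to -1.33). The thinned share of cells with a UMI was 9.53% for Con. By hour it was 53.2%, 77.1% and 96.2% for Veh, and for DHA 59.9%, 51.4% and 84.0%. Unthinned, Con had a share of 14.3%, the Veh libraries had 65.1%, 81.7% and 98.8%, and the DHA libraries had 73.4%, 62.1% and 88.7%. Over all barcodes the log2 ratio of DHA to Veh at 0 h was -0.07 and that of 1 h to 0 h in DHA was 0.16. Both went the other way from the kept cells. The medians of all genes in these 2 comparisons were -0.25 and -0.11 over all barcodes.

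Rgs2 (ENSMUSG00000026360; chromosome 1, 143999338 to 144004149), whose protein is known for its preference for the Gq alpha subunit, was counted at 10.4 CPM in Con, 35.1 in Veh.LPS.0, 48.5 in Veh.LPS.1 and 82.4 in Veh.LPS.4. With DHA it was counted at 42.3, 16.5 and 26 CPM. After LPS both DHA libraries lay below DHA.LPS.0 and both Veh libraries above Veh.LPS.0. Veh.LPS.0 was 3.39-fold above Con (3.18 to 3.61). The ratio to 0 h was 1.38 (1.32 to 1.45) and 2.35 (2.25 to 2.45) in Veh, and 0.391 (0.353 to 0.432) and 0.615 (0.558 to 0.678) in DHA. The log2 response in DHA was lower than in Veh by 1.82 at 1 h (interval -1.98 to -1.67) and by 1.93 at 4 h (-2.09 to -1.78).

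A single cell of DHA.LPS.0 held 151 of its 1480 Rgs2 UMIs, or 10.2%, and without that cell and the richest cell of Veh.LPS.0 the log2 ratio of DHA to Veh at 0 h was 0.13 in place of 0.27. Over all barcodes it was -0.14, the other way, where the median of all genes was -0.25. The ratio of DHA to Veh for Rgs2 was 1.20 (1.13 to 1.28) at 0 h, 0.340 (0.310 to 0.372) at 1 h and 0.315 (0.289 to 0.344) at 4 h. The thinned share of cells with a UMI was 12.3% for Con and by hour 34.4%, 35.2% and 53.1% for Veh, with 32.4%, 14.5% and 23.1% for DHA, against unthinned shares of 19.3%, 46.4%, 42.2%, 71.1%, 47.0%, 21.9% and 30.1% in the same order. With factors of the trimmed mean of M-values (TMM), the log2 ratio of 4 h to 0 h in DHA was -0.39 in place of -0.70 and did not pass the 1.5-fold limit. In the barcodes with at least 20% mitochondrial UMIs it was -0.08.

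Rgs1 and Rgs2 lie 240520 bases apart on chromosome 1, with Rgs13 the only protein-coding gene of the RefSeq table between them and with Rgs21 and Rgs18 on the far side of Rgs1. These 3 neighbours were at or near 0 in every library. Rgs21 had 0 UMIs throughout, Rgs13 had 0 to 6 UMIs and Rgs18 had 0 to 24 UMIs a library. Within this cluster, therefore, UMIs beyond a trace were counted for Rgs1 and Rgs2.

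Rasgef1b (ENSMUSG00000089809; chromosome 5, 99217420 to 99252927) was highest at 1 h and lower again at 4 h. It was counted at 12.8 CPM in Con, 16.4 in Veh.LPS.0, 150.1 in Veh.LPS.1 and 51.2 in Veh.LPS.4, and at 14.4, 73.6 and 23.9 CPM with DHA. The DHA and Veh libraries were close at 0 h, and after LPS each DHA library lay below the Veh library of its hour. In Veh the ratio to 0 h was 9.14 (8.68 to 9.63) at 1 h and 3.12 (2.93 to 3.31) at 4 h. In DHA it was 5.09 (4.62 to 5.62) and 1.65 (1.46 to 1.87). The ratio of 4 h to 1 h was nearly the same in the 2 arms, at 0.341 (0.328 to 0.355) in Veh and 0.324 (0.294 to 0.357) in DHA.

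The ratio of DHA to Veh for Rasgef1b was 0.880 (0.794 to 0.973) at 0 h, 0.490 (0.469 to 0.512) at 1 h and 0.466 (0.424 to 0.511) at 4 h. On the log2 scale its response to LPS was smaller in DHA by 0.84 at 1 h (interval -1.0 to -0.69) and by 0.92 at 4 h (-1.11 to -0.72). The thinned share of cells with a UMI was 19.1% for Con and by hour 24.5%, 72.9% and 52.4% for Veh, with 23.2%, 54.8% and 32.8% for DHA. Unthinned, the shares ran from 31.6% in Con to 80.8% in Veh.LPS.1. With counts corrected by SCTransform (pseudocount 1, which brings ratios nearer to 1), the log2 ratio of 4 h to 0 h in DHA was 0.25 in place of 0.72.

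Pde4b (ENSMUSG00000028525; chromosome 4, 102087332 to 102607275, with 6 coding RefSeq transcripts), which hydrolyses cyclic AMP, had the largest ratio of CPM to 0 h at 1 h of LPS among the 6 genes, an order that changed with SCTransform-corrected counts (pseudocount 1), where its log2 ratio was 1.52 in Veh and 1.41 in DHA and that of Gpr84 was 2.12 and 1.93. It was counted at 3.89 CPM in Con, 4.95 in Veh.LPS.0, 70.0 in Veh.LPS.1 and 46.1 in Veh.LPS.4, and at 3.17, 54.0 and 52.5 CPM with DHA. All 4 LPS libraries lay far above the 3 without LPS, and the LPS libraries of Veh and DHA were intermixed. The ratio to 0 h was 14.1 (12.9 to 15.5) at 1 h and 9.31 (8.45 to 10.3) at 4 h in Veh, and 17.0 (14.1 to 20.8) and 16.6 (13.6 to 20.3) in DHA. Between 1 and 4 h the ratio was 0.658 (0.629 to 0.688) in Veh and 0.973 (0.902 to 1.05) in DHA, and with TMM factors the first was -0.26 on the log2 scale, within the 1.5-fold limit, and the second 0.16, the other way.

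The ratio of DHA to Veh for Pde4b was 0.640 (0.516 to 0.788) at 0 h, where fewer than 25% of the cells of either library had a UMI, 0.771 (0.731 to 0.813) at 1 h and 1.14 (1.06 to 1.22) at 4 h. Over all barcodes the 4 h log2 ratio was -0.25, the other way, where the median of all genes was -0.18. At 4 h the log2 response was larger in DHA by 0.83 (0.52 to 1.15), and at 1 h the difference was 0.27 (-0.04 to 0.58), an interval that holds 0. The thinned share of cells with a UMI was 7.05% for Con and by hour 8.63%, 68.3% and 52.9% for Veh, with 6.16%, 54.2% and 58.1% for DHA. The unthinned share ran from 13% in DHA.LPS.0 to 78.9% in Veh.LPS.4, the library with the deepest cells, whereas the thinned share was highest in Veh.LPS.1.

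**Figure D2:**
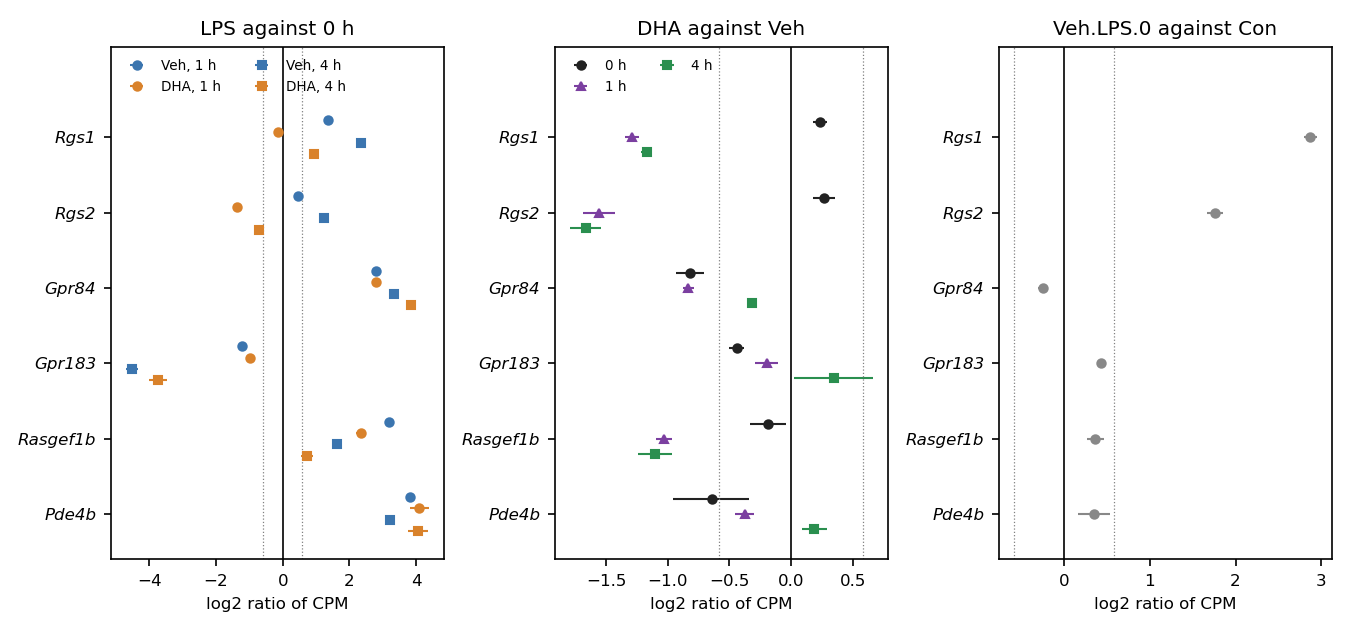
Log2 ratio of CPM (horizontal axes) of each gene for LPS against 0 h in Veh and DHA, for DHA against Veh at 0, 1 and 4 h, and for Veh.LPS.0 against Con, with horizontal bars for the exact 95% counting interval and dotted lines at 1.5-fold. Rgs1 and Rgs2 lie right of 0 in DHA against Veh at 0 h and left of -1 at 1 and 4 h, while Gpr183 and Pde4b lie right of 0 at 4 h.

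Counted against a limit of 1.5-fold, 4 of the 6 genes were higher and 1 lower at 1 h in Veh, where 4.15% of the 8089 genes detected in 25% or more of the cells in either library were higher and 4.24% were lower. At 4 h in Veh 5 were higher and 1 lower, against 10.2% and 38.3% of 8385 genes, and between 1 and 4 h 2 were higher and 3 lower, against 7.98% and 29.3%. With TMM factors the last count was 3 higher and 2 lower, the log2 ratio of Gpr84 being 0.86 instead of 0.52. In DHA 3 were higher and 2 lower at 1 h, against 4.66% and 4.97%, and 4 were higher and 2 lower at 4 h, against 9.64% and 33.6%. From 1 to 4 h in DHA 3 were higher and 2 lower, against 6.97% and 23.3%. Between Con and Veh.LPS.0 the 2 RGS genes were higher, against 9.31% of genes higher and 7.76% lower. The genes were chosen on these contrasts, so nothing is read from the counts.

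For DHA against Veh, 0 members were higher at any hour. Gpr84 and Pde4b were lower at 0 h, where 1.08% of genes were higher and 0.949% lower. Pde4b was in under 25% of the cells in both of those libraries, so on the filter of that background the count was 1 of 5. Rgs1, Rgs2, Gpr84 and Rasgef1b were lower at 1 h, against 1.33% and 1.73%. Rgs1, Rgs2 and Rasgef1b were lower at 4 h, against 2.22% and 2.42%. Every library enters several of the 10 comparisons, so these are not independent of each other.

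The 4 h libraries differed from the others in their composition of RNA, which touches every ratio that involves them. The median log2 ratio of all genes past the 25% limit was -0.36 for 4 h against 0 h in Veh and -0.29 in DHA. With TMM factors these medians were 0.07 and 0.02, the log2 ratios of the 6 genes were higher by up to 0.43, and the split over all genes in Veh was 21.7% higher and 21.1% lower. None of the 6 genes changed direction at 4 h against 0 h under this scaling. From 1 h to 4 h the split with TMM factors was 16.6% higher and 16.3% lower in Veh and 11.4% and 15.5% in DHA. In DHA at 4 h against 0 h it was 18.7% and 20.7%. At 1 h against 0 h it was 5.11% and 3.12% in Veh and 6.01% and 3.26% in DHA. For DHA against Veh at 4 h it was 1.33% and 3.23%.

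Other genes of the pathway were taken as 11 lists of 187 genes in all, none of them members. Of these, 71 were detected in 25% or more of the cells in Veh.LPS.4 or Veh.LPS.0, and 15 of the 71 were higher and 27 lower at 4 h. These were 21.1% and 38.0%, against 10.2% and 38.3% of all genes. With TMM factors the counts were 24 higher and 23 lower, or 33.8% and 32.4% against 21.7% and 21.1%. At 1 h 65 genes reached the 25% limit, 6 were higher and 7 lower, or 9.23% and 10.8% against 4.15% and 4.24%. As over all genes, fewer passed 1.5-fold for DHA against Veh. They were 1 of the 65 measured without LPS, 3 of the 61 measured at 1 h and 4 of the 60 measured at 4 h. By hour 0%, 1.64% and 1.67% were higher, against 1.08%, 1.33% and 2.22% of all genes. The shares lower were 1.54%, 3.28% and 5%, against 0.949%, 1.73% and 2.42%. The fractalkine receptor Cx3cr1 was lower at each hour, with 41.3 against 88.8 CPM at 0 h and ratios of 0.467 at 1 h and 0.512 at 4 h. At 1 h the leukotriene B4 receptor Ltb4r1 was higher with DHA, with a ratio of 1.51. At 4 h the receptor kinase Grk6 was higher, with a ratio of 1.53, and Cysltr1 and Ccr2 were lower, with ratios of 0.656 and 0.662. The split at 4 h was 1 higher and 3 lower in CPM, but 0 higher and 5 lower with TMM or median-of-ratios factors, where the log2 ratio of Grk6 was 0.51 or 0.54, within the 1.5-fold limit.

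Among the other RGS genes, 5 of 19 reached the limit at 4 h in Veh, with 2 higher, 2 lower and a median log2 ratio of -0.17. Over all genes 10.2% were higher, 38.3% were lower and the median was -0.36. Rgs16 went from 6.63 to 64.0 CPM, a ratio of 9.65, and reached 43.2 CPM in DHA.LPS.4. Rgs3 was higher with a ratio of 2.83, and Rgs10 and Rgs14 were lower with ratios of 0.358 and 0.454. At 1 h 0 of 4 were higher and Rgs14 was lower, with a ratio of 0.628, against 4.15% and 4.24% of all genes. Between DHA and Veh, 0 of the 3 or 4 RGS genes outside the 6 that reached the limit passed 1.5-fold in CPM at 0, 1 or 4 h. Over all genes at most 2.22% were higher and 2.42% lower in these comparisons. At 4 h the log2 ratio of Rgs16 was -0.57 in CPM, just inside 1.5-fold, and it was past it at -0.67 with TMM factors and -0.64 with median-of-ratios factors.

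Of the 7 chemokine, complement and adhesion receptors, 5 were higher and 0 lower at 4 h with a median log2 ratio of 1.13, where over all genes 10.2% were higher, 38.3% were lower and the median was -0.36. The counts were 6 and 0 with TMM factors. Ccrl2 had a ratio of 14.2 and the C5a receptor C5ar1 one of 6.16. At 1 h C5ar1 was at 3.53 and Ccr2 at 4.83. Of the 7 lipid and metabolite receptors, 3 were higher and 3 lower at 4 h. The niacin receptor Hcar2 had a ratio of 9.08 and the platelet-activating factor receptor Ptafr one of 2.32, whereas Cysltr1 and Ltb4r1 had ratios of 0.247 and 0.322. At 1 h Ptafr was 3.67-fold higher, and the sphingosine-1-phosphate receptor S1pr2 and the prostacyclin receptor Ptgir had ratios of 0.374 and 0.569. Of the 4 nucleotide, adenosine and adrenergic receptors, 2 were higher and 1 lower at 4 h, and the 2 were Adora2b with a ratio of 2.90 and P2ry2 with 2.36.

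Downstream of the receptors the counts at 4 h in Veh stand beside the same 38.3% of all genes lower and 10.2% higher, or 21.1% and 21.7% with TMM factors. Of 13 heterotrimeric G proteins 0 were higher and 4 lower in CPM, and 2 were higher and 3 lower with TMM factors. Of 14 exchange factors and GTPase-activating proteins for Ras and Rap 1 was higher and 6 lower in CPM, and 4 were higher and 5 lower with TMM factors. For phosphodiesterases 0 of 7 were higher and 5 lower (0 and 4 with TMM factors), with a median log2 ratio of -1.05. This list was not limited to genes that act on cyclic AMP. In it Pde4a and Pde6d had ratios of 0.186 and 0.263. Pde4b itself, which is not in that list, was 9.31-fold higher in the same comparison, and its close relatives Pde4a and Pde4d, which also hydrolyse cyclic AMP, had 3.58 and 17.6 CPM in Veh.LPS.4 against 19.2 and 36.4 CPM in Veh.LPS.0. Among heterotrimeric G proteins Gnb5 and Gna15 had ratios of 0.117 and 0.218. Among receptor kinases and arrestins, which silence receptors, Arrb1 and Grk6 had ratios of 0.230 and 0.334. Of 6 genes of the cyclic AMP and protein kinase A list, 0 were higher and 2 lower. The median log2 ratio was -0.40, close to the -0.36 over all genes. The 2 were Prkaca and Creb1, with ratios of 0.437 and 0.580. Of the 3 cyclic AMP-responsive genes past the 25% limit, out of 11, 2 were higher and 0 lower. These were Crem and Vegfa, with ratios of 1.53 and 1.78. Among the exchange factors and GTPase-activating proteins, Rapgef2 was higher with a ratio of 4.15, and Rasa3 and Rasgrp3 were lower with ratios of 0.0684 and 0.193.

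**Figure D3:**
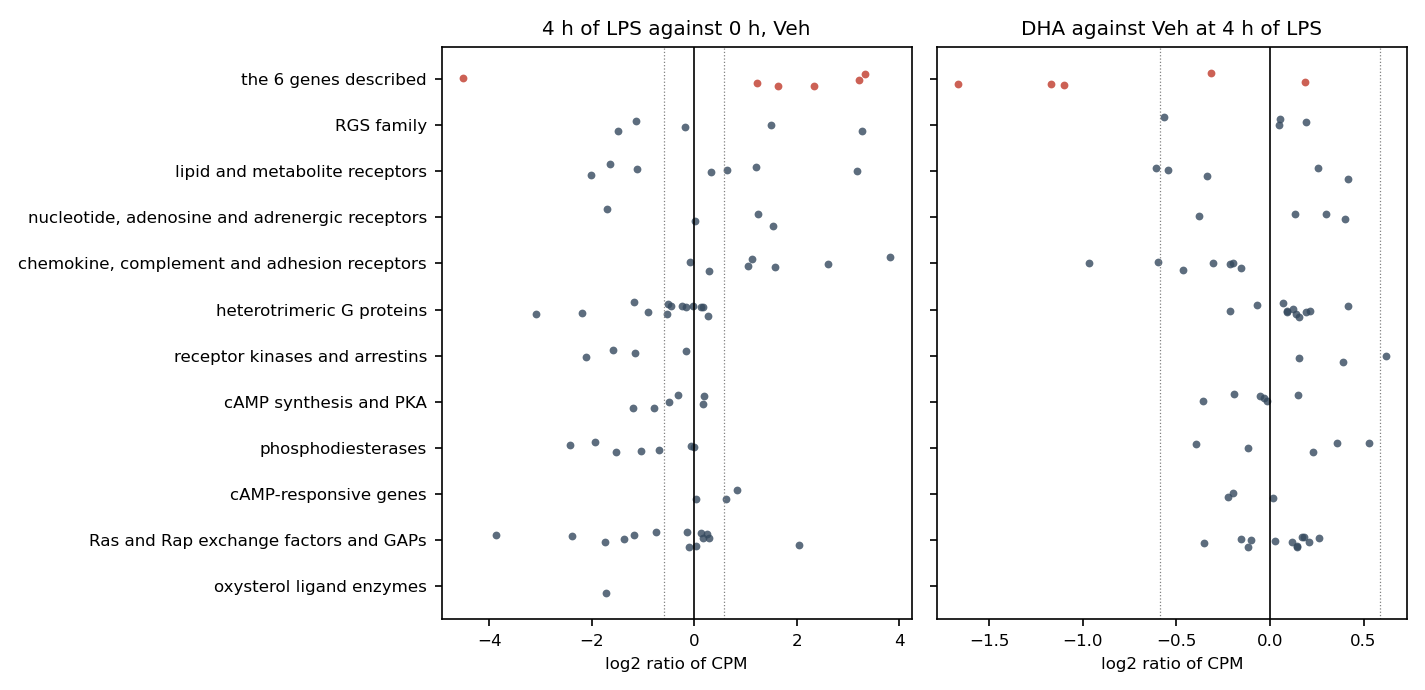
Log2 ratio of CPM (horizontal axes) for Veh.LPS.4 against Veh.LPS.0 (left) and DHA.LPS.4 against Veh.LPS.4 (right), 1 point for each gene detected in 25% or more of the cells in either library, with the 6 genes in red, the pathway lists in dark blue and dotted lines at 1.5-fold. On the right the pathway genes past the limit are Grk6, Cx3cr1, Cysltr1 and Ccr2, and Rgs1, Rgs2 and Rasgef1b lie left of -1.

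Over the 7 libraries, the genes with the pattern most like each member were found by Pearson's r of log2(CPM + 1) among the 8765 genes that 25% or more of the cells expressed in some library. The libraries fall into groups by hour, so r mainly ranks genes and carries no test. For Gpr84 they were C5ar1 (0.992), Slc7a1 (0.990) and Coq10b (0.986), and for Gpr183 Mrpl57 (0.999), Trmt2b (0.998) and Arhgap45 (0.998). For Rgs1 they were Sat1 (0.982), Glipr1 (0.970) and the osteopontin gene Spp1 (0.966), and for Rgs2 Gm12166 (0.932), Kat6b (0.932) and Bmt2 (0.914). For Rasgef1b they were Homer1 (0.986), Ccr2 (0.982) and Zfp719 (0.970), and for Pde4b the inflammasome gene Nlrp3 (0.997), Bcl10 (0.997) and Gm12840 (0.995). The match was least close for Rgs2. Like Gpr84, C5ar1 went from 16.2 to 57.2 and then 99.8 CPM over the Veh hours, and like Pde4b, Nlrp3 went from 28.8 to 595 and 443 CPM. Among the 15 pairs of members, Gpr84 and Pde4b had the highest r (0.947), followed by Rgs1 with Rgs2 (0.854) and Rasgef1b with Pde4b (0.847), and Gpr84 with Gpr183 had the lowest (-0.829).

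Between cells the RGS genes varied more than the receptors, with a higher Fano factor (variance over mean, 1 for pure counting) than Gpr84 and Gpr183 in each of the 7 libraries. In cells thinned to 20000 UMIs, it was 3.91 to 7.28 for Rgs1 and 3.13 to 9.22 for Rgs2 over the 7 libraries, against 1.38 to 1.67 for Gpr183 and 1.03 to 1.65 for Pde4b. The 9.22 was that of DHA.LPS.0, where 1 cell had 60 Rgs2 UMIs, and it was 3.59 without that cell. Without the richest cell of each library the range was 3.76 to 6.19 for Rgs1 and 2.73 to 4.71 for Rgs2. Gpr84 had 1.40 to 3.28 and Rasgef1b 1.30 to 4.83, the highest in Veh.LPS.1. The 10% of cells richest in Rgs2 held 52.2% to 88.8% of its UMIs. This share is not particular to Rgs2, because it is 100% wherever under 10% of cells have a UMI. That held for Gpr183 in Veh.LPS.4 and DHA.LPS.4, for Pde4b in Con, Veh.LPS.0 and DHA.LPS.0, and for Rgs1 in Con. In Con 90.5% of cells had 0 Rgs1 UMIs, yet the richest cell had 47, and in Veh.LPS.4 the median cell had 8 and the 90th percentile was 19. In DHA.LPS.4 the median for Rgs1 was 3 and the 90th percentile 10, both below the Veh values.

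For Gpr84 the median cell had 7 UMIs in Veh.LPS.4 and 5 in DHA.LPS.4, and 1 in Con. For Rasgef1b the median was 2 and the 90th percentile 8 in Veh.LPS.1, against 1 and 4 in DHA.LPS.1. A UMI of all 6 genes in the same cell was found in 289 cells (9.40%) of Veh.LPS.1 and 12 cells (1.51%) of DHA.LPS.1, in 8 cells (0.806%) of Veh.LPS.4, in 5 of Veh.LPS.0, in 1 of Con and in 0 of DHA.LPS.0 and DHA.LPS.4. With 698 cells in DHA.LPS.0 and 692 in DHA.LPS.4, a count of 0 allows a share of up to 0.430% and 0.434% of cells.

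**Figure D4:**
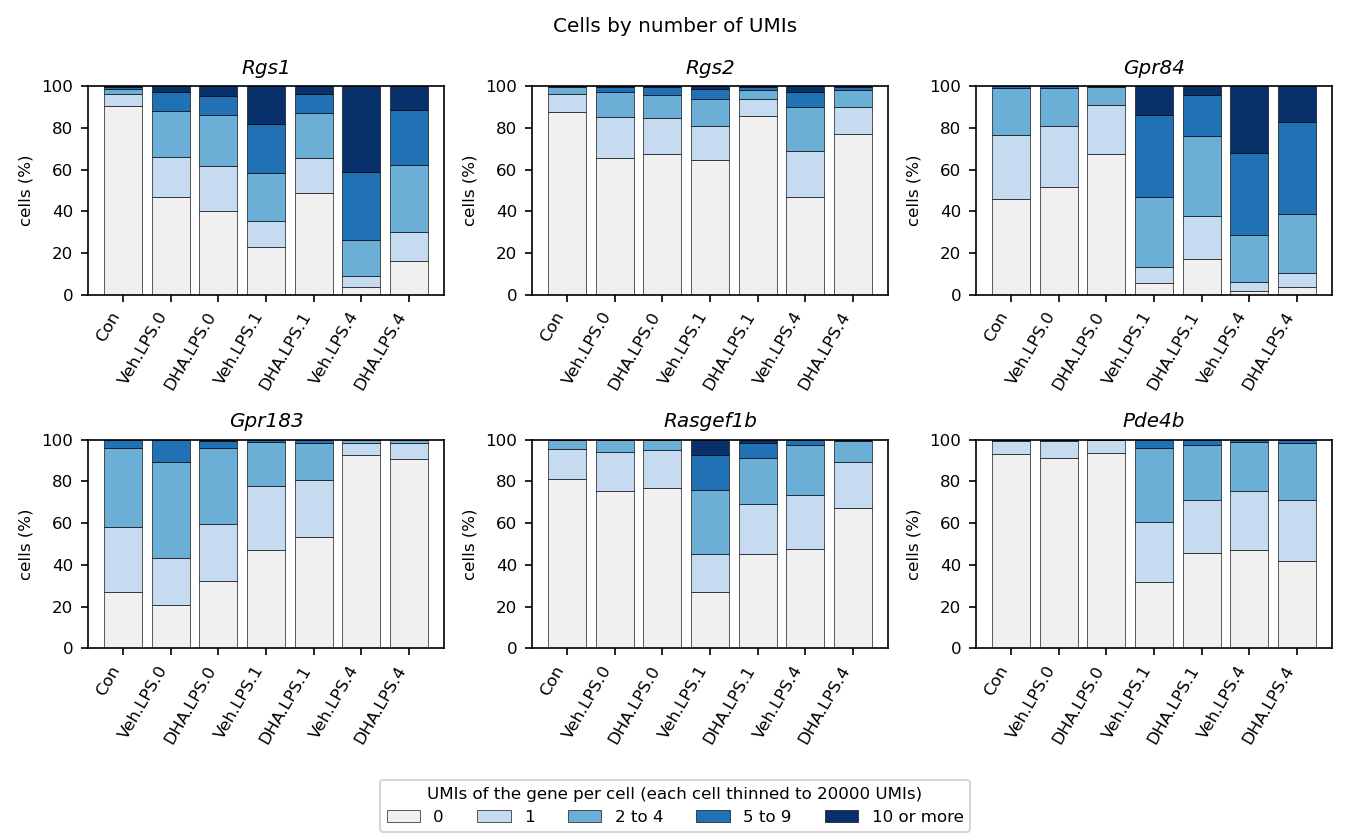
Share of cells (vertical axes, %) by number of UMIs of each gene in the 7 libraries, from 0 (light) to 10 or more (dark), with each cell thinned to 20000 UMIs. Rgs1 has cells of 10 or more UMIs in every library, from Con, where 90.5% of cells have 0, to Veh.LPS.4, where the median cell has 8.

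Within libraries the genes were only weakly related cell by cell. Pearson's r of log counts between Rgs1 and Rgs2 was 0.157 to 0.30 over the 7 libraries, that of Rgs1 with Rasgef1b 0.071 to 0.214 and that of Gpr84 with Pde4b 0.032 to 0.226. The other pairs ran from -0.155 to 0.216. With genes chosen after their values were seen, Rgs1 had r of 0.160 to 0.532 with the chemokine gene Ccl4 and 0.114 to 0.497 with Ccl3, Gpr84 had 0.064 to 0.370 with Nlrp3 and Gpr183 had 0.105 to 0.250 with Mef2c. These values share the library and the sparse counts of each cell, and are a description only.

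The share of dividing cells differed between libraries, and some of the genes differed with it. Cells with at most 20 UMIs of 20 mitotic genes made up 19.0% of Con. By hour they made up 37.7%, 40.9% and 79.0% of the Veh cells but 56.9%, 59.4% and 68.5% of the DHA cells. Between the highest and lowest tertile of cells by mitotic UMIs, Rasgef1b was lower in the highest tertile in 7 of 7 libraries, with ratios of 0.513 to 0.763. Rgs1 and Rgs2 were lower there in 6 of 7 libraries, with ratios of 0.422 to 1.17 and 0.363 to 1.05, Veh.LPS.4 being the exception in both. The median of the highest tertile was 28 mitotic UMIs in Veh.LPS.4 and 51 in DHA.LPS.4, against 97 to 145 in the other libraries. The tertiles at 4 h are therefore not the same split as before. For Rgs2 the counting interval held 1 in Veh.LPS.4 (0.926 to 1.18) and in DHA.LPS.4 (0.606 to 1.10). Pde4b was higher in 6 of 7, with ratios of 0.768 to 1.93, and Gpr84 and Gpr183 were higher in 3 and 4 of 7. For Pde4b the interval held 1 in DHA.LPS.0 (0.947 to 4.09), DHA.LPS.1 (0.849 to 1.20) and Veh.LPS.4 (0.995 to 1.36). It also held 1 in Con (0.544 to 1.08), where the ratio was below 1. All cells of Veh.LPS.0 and DHA.LPS.0 had 234 and 45 thinned Pde4b UMIs.

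In the thinned cells with at most 20 mitotic UMIs alone, Rgs1 stood at 20.8 CPM for Con and by hour at 118, 257 and 502 CPM for Veh, with 134, 106 and 223 CPM for DHA. At 1 h Rasgef1b stood at 202 CPM for Veh against 88.3 CPM for DHA, and at 4 h Rgs2 stood at 83.0 against 26.2 CPM. The DHA libraries stayed below the Veh libraries at 1 and 4 h for these 3 genes. For Gpr183 and Pde4b, DHA.LPS.4 was nearly level with Veh.LPS.4, at 5.27 against 5.10 CPM and 45.7 against 44.1 CPM. For Pde4b the log2 ratio of Veh.LPS.0 to Con was -0.28 in these cells, from 64 and 46 UMIs, against 0.26 in all thinned cells.

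**Figure D5:**
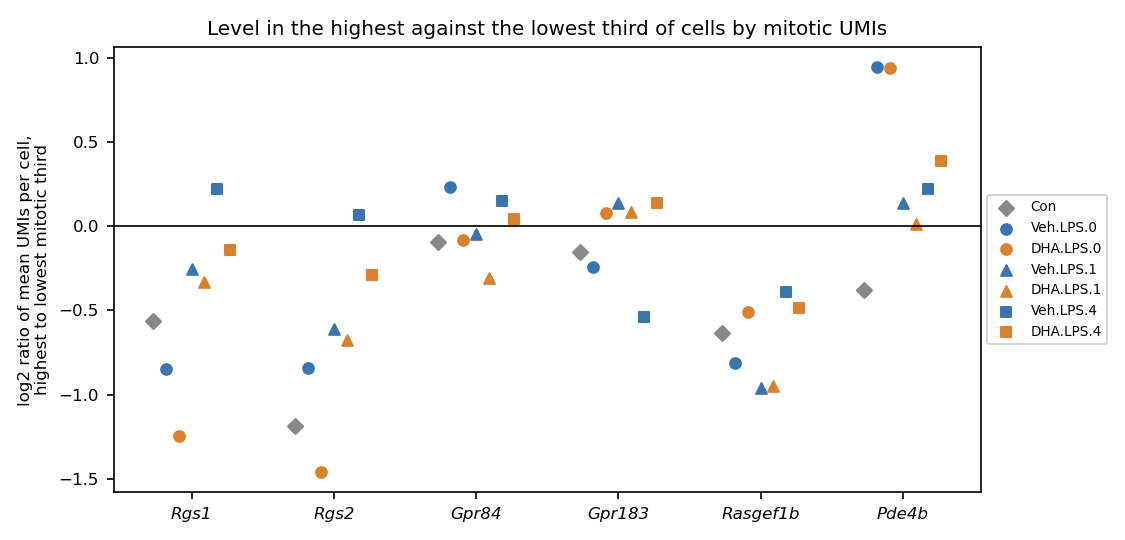
Log2 ratio of mean UMIs per cell in the highest against the lowest tertile of cells by mitotic UMIs (vertical axis) for each gene, with 1 point for each library (grey for Con, blue for Veh and orange for DHA; diamonds for Con, circles for 0 h, triangles for 1 h and squares for 4 h). All 7 points of Rasgef1b lie below 0, and 6 of 7 lie below 0 for Rgs1 and Rgs2.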

How the data were processed

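The 7 libraries were made with the 10x Chromium 3′ kit (v3 chemistry). The authors deposited UMI counts per gene and barcode from Cell Ranger 3.1.0 against mm10, not normalised, per the file headers and the submitters' processing notes. Barcodes with over 20000 UMIs, at least 2000 genes and under 20% mitochondrial UMIs were kept, and no doublet caller was run. UMIs were summed over kept cells and divided by the library total (CPM). Ratios carry an exact binomial 95% interval of the 2 sums, levels an exact Poisson one and shares of cells an exact Clopper-Pearson one, all for counting error only. Differences between log2 responses carry a normal approximation from the counting variance of the sums, also for counting error only. A gene was called past 1.5-fold, and outside the 6 genes only if detected in 25% or more of the cells in either library. With 1 library per condition there was no test. Depth and the 10 comparisons are as given above.

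The alternatives were TMM (edgeR 4.0.16) and median-of-ratios factors (DESeq2 1.42.0), SCTransform-corrected counts (sctransform 0.4.2, R 4.3.3, pseudocount 1), the mean share per cell, thinned cells, other limits on cells, shares and folds, and 3 chosen after seeing the data. The ratio script was tested on simulated data. Coordinates are from the RefSeq table of GRCm38.p6. The 6 genes and the lists were chosen with earlier results of these data known. Of each list, the text names up to 2 genes with the highest and 2 with the lowest ratios past the limit, and all genes past it for DHA against Veh. Pde4d is named beside Pde4b, and the genes compared cell by cell were chosen after their values were seen. A gene of the lists that entered the counts is not reported here by name.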

Additional observations from a re-analysis of the deposited data

Results flagged for a closer look

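The difference between DHA and Veh in a group of results went one way before LPS and the other way after it, or LPS went opposite ways in the 2 arms. With 1 library per condition these differences were not tested.

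For Rgs1 the log2 response to LPS in DHA minus that in Veh was -1.52 at 1 h and -1.40 at 4 h. DHA stood above Veh at 0 h (111 and 94.2 CPM) and below it at both later hours, and at 1 h the level was below that of 0 h in DHA but above it in Veh. The fall in DHA was small, with a log2 ratio of -0.15 where the median of all genes was -0.12. It was therefore close to the shift of all genes between these 2 libraries. The position at 0 h rests on the kept cells. In barcodes with at least 20% mitochondrial UMIs, with the mitochondrial genes left out of the total, DHA.LPS.0 had 112 and Veh.LPS.0 171 CPM, a log2 ratio of -0.61, and the ratio of 1 h to 0 h in DHA was 0.54 on the log2 scale.

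For Rgs2 the same differences were -1.82 at 1 h and -1.93 at 4 h, with LPS libraries below 0 h in DHA and above it in Veh. In the barcodes with at least 20% mitochondrial UMIs, on the same total without mitochondrial genes, DHA.LPS.0 and Veh.LPS.0 had 25.0 and 25.2 CPM, and DHA.LPS.4 had 23.6 CPM against 89.5 CPM in Veh.LPS.4. Of the Rgs2 UMIs of DHA.LPS.0, 10.2% came from 1 cell.

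For Gpr183 and Pde4b the differences were 0.79 and 0.83 at 4 h. In the barcodes with at least 20% mitochondrial UMIs that of Pde4b was smaller by 0.55. Each stood lower in DHA than in Veh at 0 h and higher at 4 h, at 5.58 against 4.39 CPM for Gpr183 and 52.5 against 46.1 CPM for Pde4b. In thinned cells with at most 20 mitotic UMIs, DHA.LPS.4 and Veh.LPS.4 were nearly level for both genes. They had 5.27 and 5.10 CPM for Gpr183, from 50 and 80 UMIs, and 45.7 and 44.1 CPM for Pde4b. For Pde4b the level at 0 h rested on 111 UMIs in DHA and 489 in Veh. Over all barcodes its order at 4 h was the other way, where the median log2 ratio of all genes was -0.18.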

How the results depend on the processing

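No paired analysis was possible because each condition was 1 library and the labels carry no replicate numbers, and for the same reason no library could be left out. Limits are the single libraries, the loss of most DHA barcodes to the mitochondrial limit, and the composition at 4 h. Of 60 log2 ratios of the 6 genes, 59 or 60 kept their sign under each alternative but 2, and no ratio past 1.5-fold turned round. Over all barcodes 7 had the other sign, and in barcodes with at least 20% mitochondrial UMIs 5 had it. Of the 12 differences between the log2 responses to LPS in DHA and Veh, 10 kept their sign with SCTransform. With TMM factors and over all barcodes 11 kept it, and under each other alternative 12 did. The largest move was 0.898 (Rgs2 at 1 h, with SCTransform). For DHA against Veh the median of all genes was also lower over all barcodes, as given above. SCTransform-corrected counts moved a log2 ratio by up to 2.76 (Pde4b, DHA.LPS.4 against DHA.LPS.0), all others by up to 0.846. The pseudocount of 1 was added to the mean count per cell. By its construction it brings ratios nearer to 1, most where the mean is low, and so lowers counts past a limit. In thinned cells the mean of Pde4b was 0.0645 UMIs in DHA.LPS.0 and 1.04 in DHA.LPS.4. A higher limit on fold or the removal of the share limit also changes a count by its construction. Beyond this the cause of these changes was not tested.

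Of the 6 genes, 2 were past 1.5-fold for DHA.LPS.0 against Veh.LPS.0 (Gpr84 and Pde4b). In thinned cells 1 was (Gpr84), and over all barcodes 1 was (Pde4b), so these were not the same gene. With SCTransform or with a fold limit of 2 the count was 0. With the limit of 2, the counts for 4 h were 2 against 1 h in Veh (5 at 1.5-fold) and 3 against 0 h in DHA (6 at 1.5-fold). The shares of all genes past the limit were not counted under these other settings, so nothing is read from these counts.

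The pathway genes past 1.5-fold are given in the order Veh.LPS.0 against Con, Veh 1 h and 4 h against 0 h, Veh 4 h against 1 h, the same 3 in DHA, and DHA against Veh at 0, 1 and 4 h. There were 13, 13, 42, 31, 14, 36, 29, 1, 3 and 4. The shares over all genes in these comparisons are given above, for CPM at 1.5-fold. Under the alternatives that follow, the shares over all genes were not counted, so nothing is read from the counts. With SCTransform the first 7 were 2, 3, 19, 14, 5, 19 and 10, and DHA against Veh gave 1 at 1 h and 2 at 4 h. With no limit on the share of cells they were 39, 38, 79, 71, 36, 66, 61, 18, 25 and 22. With the fold limit of 2 there were 5 for Veh.LPS.0 against Con, 8 at 1 h against 0 h in Veh and 8 in DHA, and 1 at 1 h and 0 at 4 h for DHA against Veh. In all barcodes the 3 DHA comparisons over time gave 9, 22 and 16, and DHA against Veh gave 7 at 0 h and 11 at 1 h. Thinned cells gave 2 for DHA against Veh at 0 h, and cells with at most 20 mitotic UMIs gave 2 at 0 h and 5 at 1 h. Barcodes with at least 20% mitochondrial UMIs gave 5, 7, 16 and 13 in the first 4 comparisons and 16 and 12 at 4 h against 0 and 1 h in DHA. The limit to cells with at most 20 mitotic UMIs, that to high-mitochondrial barcodes and the removal of the richest cell were chosen after seeing the data.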

Other observations

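The barcodes left out for a mitochondrial share of at least 20% held both receptor mRNAs at higher levels than the kept cells of their own library. With mitochondrial genes taken out of both totals, the ratio of the level in these barcodes to that in the kept cells was 2.68 to 3.95 for Gpr84 and 2.61 to 4.78 for Gpr183, above 1 in 7 of 7 libraries for each, whether the gene was high or low in that library. Over all genes detected in 25% or more of the kept cells, the median ratio was 0.794 to 1.01. In Con, Gpr183 had 386 CPM in these barcodes and 74.4 CPM in the kept cells, where mitochondrial genes stayed in the total, and Gpr84 had 193 and 45.2 CPM. Rgs1 was higher in 6 of 7 libraries, with ratios of 0.932 in DHA.LPS.0 to 2.05 in Veh.LPS.4. Rasgef1b lay between 0.887 and 1.14, Rgs2 between 0.546 and 1.01 and Pde4b between 0.597 and 0.885. The left-out barcodes were shallow, with a median of 5770 to 11781 UMIs, and their depth, their number (1337 to 4580 a library) and the mitochondrial share move together. The part of each in these ratios was not tested.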
